A study of Mus musculus with 2 samples.

Results

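Promoter windows with an excess of anti-FLAG tags over IgG tags were examined in mouse fibroblasts that carry FLAG-tagged cyclin D1. The autosomes of build NCBIM37 were divided into 4944676 windows of 500 bp, and 127932 of them were centred within 1 kb of the transcription start site (TSS, here the 5′ end) of an annotated gene. A promoter window was a member when it held at least 12 anti-FLAG and at most 3 IgG tags, a tag being the position of 1 mapped read. The rule gave 1427 members, 1.12% of the promoter windows. Because members were chosen by the tag counts of both libraries, those counts are given as a description and no test is made on them.

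The chromatin came from fibroblasts whose genotype is labelled CCND1-/- Flag-CCND1, named 3T3 cells in one place and mouse embryonic fibroblasts in another, with no treatment. Serum is recorded for both libraries, at the same percentage. The tagged protein came from the retroviral vector MSCV-FLAG/Cyclin D1, so the level of cyclin D1 in these cells was set by the vector and not by its own gene. Fixed chromatin of these cells was immunoprecipitated with the anti-FLAG antibody M2 for 1 library and with normal mouse IgG for the other. Cells without the tagged protein were not analysed here, so recovery through FLAG-cyclin D1 cannot be told apart from any other recovery by M2. The anti-FLAG library held 9259840 tags and the IgG library 9312346, and the mean window held 1.86 tags in each. With 1 library per antibody there is no replicate check, and the 95% intervals below, all exact binomial, cover counting error only. In introns 1 to 3 of Ccnd1, 4860 bp together, each library held 1 tag, and in intron 4, 1244 bp, they held 14 and 5. At the promoter of Ccnd1 windows had up to 7 anti-FLAG and up to 5 IgG tags, and none was a member. Tags do not measure expression, so the labelled cell type was not checked against marker genes.

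Promoters are the stretches around a TSS where RNA polymerase and transcription factors assemble, and in mammals many lie in CpG islands, stretches rich in G, C and the dinucleotide CpG that are mostly unmethylated. Cyclin D1 activates the kinases CDK4 and CDK6 in the G1 phase, and these phosphorylate the retinoblastoma protein and so release E2F factors. It has no DNA-binding domain of its own, and its recovery with chromatin has been described as passing through partner proteins.

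The sequences under the highest members are shown first, because they show how unlike each other these windows are. For each, the non-exonic stretch of at most 180 bases with most anti-FLAG tags in the window was read from build NCBIM37 on the strand of the gene. Capitals mark matches to the motifs listed further below, on either strand. The Mlf1ip stretch lies at chr8:47637156-47637335 (plus strand), from -253 to -74 bp of the TSS, and held 30 of the 38 anti-FLAG tags of its window. The Fdxr stretch lies at chr11:115138511-115138690 (minus strand) and held 27 of 35. The stretches of Rbm25 at chr12:84973001-84973180 (plus strand), Exosc4 at chr15:76157646-76157825 (plus strand) and Ndufv1 at chr19:4012812-4012991 (minus strand) all end within 6 bp of the TSS. These 3 held 24 of 28, 14 of 27 and 21 of 26 anti-FLAG tags. The Nip7 stretch lies at chr8:109580595-109580774 (plus strand) and the Dcp1a stretch at chr14:31292571-31292750 (plus strand). They stand for members with a high ratio to distant windows of the same GC. The U2 stretch at chr11:101519758-101519937 (plus strand) lies downstream of the U2 small nuclear RNA gene and held 36 of the 45 tags of the highest member. No motif is capitalised in it.
Mlf1ip: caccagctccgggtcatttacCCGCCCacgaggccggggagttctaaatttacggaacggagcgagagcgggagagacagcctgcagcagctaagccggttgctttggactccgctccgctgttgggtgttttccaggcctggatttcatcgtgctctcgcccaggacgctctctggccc
Fdxr: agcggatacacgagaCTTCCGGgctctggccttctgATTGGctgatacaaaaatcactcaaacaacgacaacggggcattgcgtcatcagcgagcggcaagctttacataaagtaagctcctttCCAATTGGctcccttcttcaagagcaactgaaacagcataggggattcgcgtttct
Rbm25: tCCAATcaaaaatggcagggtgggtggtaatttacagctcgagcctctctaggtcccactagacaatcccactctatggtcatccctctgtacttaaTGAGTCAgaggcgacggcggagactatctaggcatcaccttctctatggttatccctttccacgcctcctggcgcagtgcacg
Exosc4: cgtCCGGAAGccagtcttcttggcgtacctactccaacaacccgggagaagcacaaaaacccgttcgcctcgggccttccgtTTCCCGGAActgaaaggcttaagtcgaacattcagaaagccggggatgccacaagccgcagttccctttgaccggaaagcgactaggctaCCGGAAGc
Ndufv1: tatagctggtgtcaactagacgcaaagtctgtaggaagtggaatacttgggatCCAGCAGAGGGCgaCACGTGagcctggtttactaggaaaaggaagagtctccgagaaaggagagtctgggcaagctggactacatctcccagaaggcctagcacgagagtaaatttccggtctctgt
Nip7: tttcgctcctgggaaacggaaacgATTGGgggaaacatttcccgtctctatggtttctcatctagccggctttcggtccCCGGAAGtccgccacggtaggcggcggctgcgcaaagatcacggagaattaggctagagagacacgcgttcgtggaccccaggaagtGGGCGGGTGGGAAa
Dcp1a: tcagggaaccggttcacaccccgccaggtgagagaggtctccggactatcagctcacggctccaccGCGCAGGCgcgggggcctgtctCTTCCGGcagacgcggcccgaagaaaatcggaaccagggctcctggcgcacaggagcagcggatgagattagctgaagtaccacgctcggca
U2: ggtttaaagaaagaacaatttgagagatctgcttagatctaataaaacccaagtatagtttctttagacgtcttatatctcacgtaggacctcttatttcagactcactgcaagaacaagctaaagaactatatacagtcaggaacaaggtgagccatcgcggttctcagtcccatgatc

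The anti-FLAG count of members ran from 12 to 45 with a median of 14, and the IgG count from 0 to 3 with a median of 2. Over all promoter windows the medians were 2 and 1. Most members lay close to the threshold: 396 held exactly 12 anti-FLAG tags, 105 held 20 or more, 36 held 25 or more and 5 held 40 or more. IgG tags were 0 in 236 members, 1 in 379, 2 in 419 and 3 in 393. Together the members cover 713500 bp and hold 21102 anti-FLAG tags, 0.237% of the autosomal tags, and 2396 IgG tags, 0.0268%. Just outside the limit on anti-FLAG, 552 promoter windows had 11 tags with at most 3 IgG tags. Their median GC of 55.6% was close to the 55.9% of the members with 12 tags. Just outside the limit on IgG, 338 windows had 4 IgG tags and a median GC of 50.2%, against 52.6% in the members with 3. The limit on IgG removed 1160 of the 2587 promoter windows with at least 12 anti-FLAG tags, or 44.8%. Of those removed, 908 still had at least 2 anti-FLAG tags per IgG tag, so the members do not hold every promoter of high anti-FLAG recovery.

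**Figure D1:**
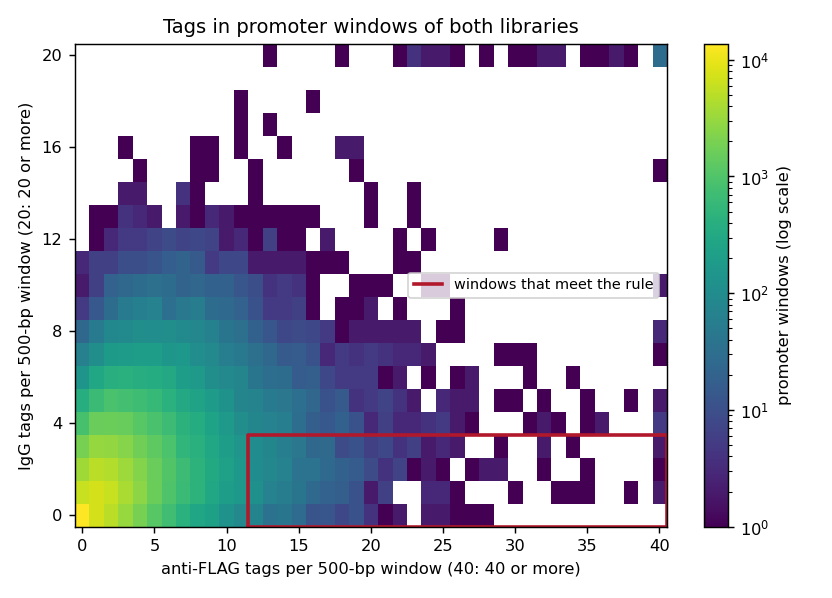
Promoter windows by anti-FLAG tags (x axis) and IgG tags (y axis) per 500-bp window, with the number of windows in colour on a log scale and counts of 40 or more and of 20 or more gathered in the last column and row. The red box holds the 1427 members, 396 of them in its first column, and 1160 windows lie above it.

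With the 2 libraries exchanged, the same rule was met by 18 promoter windows, 0.0141%. Promoter windows held means of 2.84 anti-FLAG and 1.92 IgG tags, so the exchanged rule was harder to meet and its count is no matched background. In windows over 10 kb from every TSS the rule was met by 2789 of 3749540, or 0.0744%. These distant windows have a median GC of 41.2%, against 46.8% in promoter windows, and the libraries cover GC-rich DNA unequally even there. At 50 to 52% GC distant windows held means of 1.79 anti-FLAG and 1.34 IgG tags, and at 60 to 62% 1.11 and 0.508. The share of distant windows that met the rule was therefore taken for each stratum of 2 GC points and applied to the promoter windows of that stratum. This gave 170 windows in place of the 1427 found, a ratio of 8.39. Within 250 bp of a TSS the count was 872 against 53.0, a ratio of 16.4. From 250 to 500 bp it was 306 against 44.6, and from 500 to 1000 bp 249 against 72.4. The ratio fell with distance to 3.44 but stayed over 1 at every distance examined. Matching by GC did not match coverage. Mean IgG counts were 1.81 in promoter and 1.34 in distant windows at 50 to 52% GC, and 1.27 and 0.508 at 60 to 62%. The part of this difference in these ratios, and in the shares at distant rates given below, was not tested.

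**Figure D2:**
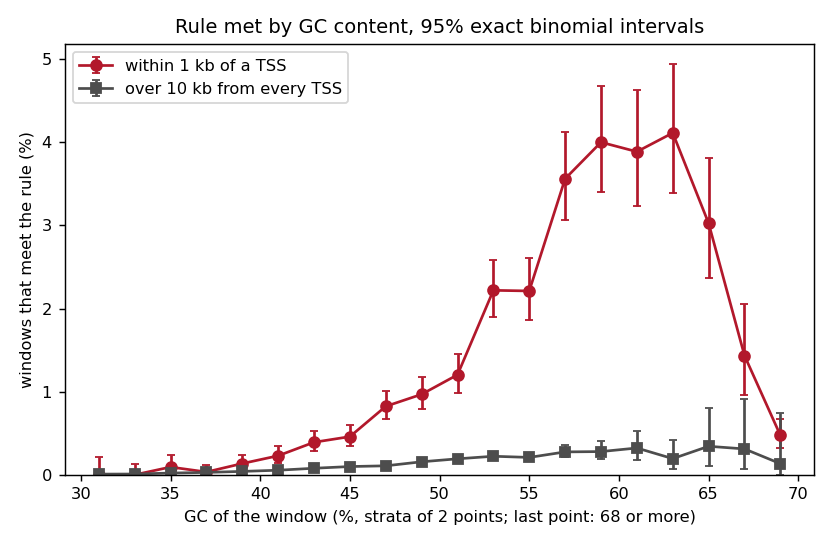
Share of 500-bp windows that met the rule (y axis, %) by GC content (x axis, strata of 2 points), for promoter windows (red) and windows over 10 kb from every TSS (grey), with 95% exact binomial intervals. The promoter share climbs from 0.229% at 40 to 42% GC to 4.11% at 62 to 64% and drops to 0.475% at 68% and more, while the distant share stays at or below 0.343%.

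Members were GC-rich and CpG-rich. Their median GC was 55.4%, with quartiles of 50.3% and 60%. The median ratio of observed to expected CpG dinucleotides was 0.694, against 0.254 over all promoter windows. A window was called CpG-rich when its GC was over 50% and this ratio over 0.6. By that definition 833 members, 58.4% (55.8 to 60.9), were CpG-rich, against 15.5% of all promoter windows. The difference held close to the TSS: within 250 bp of a TSS, 72.6% of members and 29.8% of promoter windows were CpG-rich. The share of CpG-rich members moved with the limit on IgG, from 71.2% with a maximum of 1 IgG tag to 50.2% with 5. Of the 1160 promoter windows with at least 12 anti-FLAG tags removed by this limit, 23.1% were CpG-rich, and their median GC was 47.2%. The part of the IgG limit in the CpG content of members was not tested. Windows that met the tag rule beyond 1 kb of a TSS were unlike the members in their share of CpG-rich windows. Of the 2078 such windows inside genes 2.74% were CpG-rich, and of the 1955 outside genes 3.89%. Seen from the promoters, 4.2% of CpG-rich windows were members, against 0.226% at the rates of distant windows of the same GC, and none met the rule with the libraries exchanged. CpG-rich promoter windows held means of 4.36 anti-FLAG and 1.20 IgG tags, so the exchanged rule was harder to meet there. Among windows with a CpG ratio under 0.3, called CpG-poor, 0.161% were members, against 0.101% at distant rates. With the libraries exchanged 9 CpG-poor windows met the rule, beside 118 CpG-poor members. In the windows between these classes 1.37% were members, against 0.147%.

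Within the promoter, members clustered at the TSS. Window centres lay within 250 bp in 61.1% of members and 26% of promoter windows. They lay upstream in 809 members, 56.7% (54.1 to 59.3), against 49.2% of promoter windows. CpG-rich members were upstream in 51.3%, while of all 19847 CpG-rich promoter windows 6701 were upstream. With a maximum of 1 IgG tag the share of members upstream was 51.7% (47.7 to 55.7). The share of promoter windows that were members was highest from 200 bp upstream to the TSS, 3.12%, or 412 of 13219. It was 2.49% in the next 200 bp downstream, 1.72% from 400 to 200 bp upstream and 0.991% from 200 to 400 bp downstream. At 800 to 1000 bp it was 0.402% upstream and 0.322% downstream. Around the 1367 TSSs nearest to members, anti-FLAG tags peaked at 32.6 per kb, 75 bp upstream, over 7.07 per kb at 1.5 to 2 kb. Around the other 19984 protein-coding TSSs, which the rule did not select, anti-FLAG tags also peaked upstream, with 8.43 per kb at 175 bp over 4.83 per kb in the flanks. IgG tags had a minimum at 25 bp upstream in both sets, 2.24 and 2.03 per kb, below their flanks of 5.89 and 4.27. The limit of 3 IgG tags was thus easier to meet at a TSS than beside it, and the part of this minimum in the position of members was not tested.

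**Figure D3:**
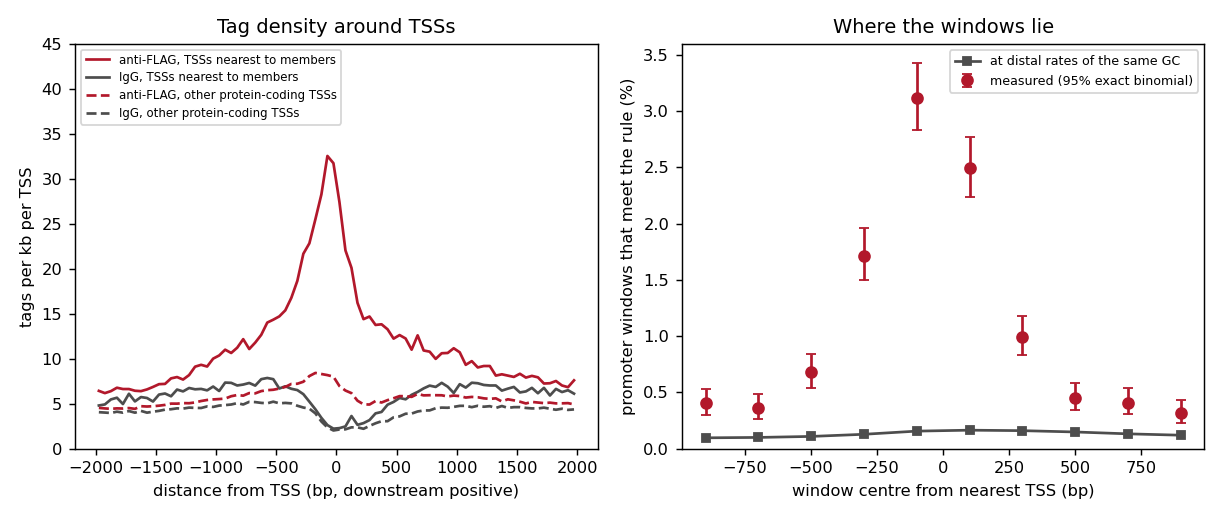
Left, tags per kb and TSS (y axis) by distance from the TSS (x axis, bp) for TSSs nearest to members (solid) and other protein-coding TSSs (dashed), anti-FLAG in red and IgG in grey. Right, share of promoter windows that met the rule (y axis, %) by position of the window centre (x axis, bp), with 95% exact binomial intervals, above the share at distant rates of the same GC, and highest at 3.12% just upstream of the TSS.

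Tags of a member fell on both strands. The median share of anti-FLAG tags on the strand with fewer tags was 41.7%, no member had all its tags on 1 strand, and 72 members had under 25% on 1 strand. The densest 150 bp of a member held a median of 58.3% of its anti-FLAG tags. The same median was 56.3% in the 1160 promoter windows removed on IgG and 58.3% in distant windows that met the rule, all close to each other. The limits chose the member window and not its neighbours, so the next values are a description. Windows 500 bp to the left and right of members had mean anti-FLAG counts of 6.11 and 6.31 and mean IgG counts of 3.27 and 3.18. At 2000 bp the means were 3.36 and 3.53 for anti-FLAG and 2.88 and 2.84 for IgG. Of the members, 1308 stood alone, 58 runs held 2 adjoining windows and 1 run held 3. That run, chr19:4213001-4214500 at Clcf1, a cytokine gene of the interleukin 6 family, had anti-FLAG counts of 12, 13 and 12 with IgG counts of 3, 1 and 0.

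The 12 protein-coding members with most tags held 26 to 38. Mlf1ip, which encodes a protein of the inner kinetochore, had 38 anti-FLAG tags and 1 IgG tag in a CpG-rich window of 59.6% GC. Fdxr, the mitochondrial reductase that feeds electrons to ferredoxin, had 35 and 2. Rtbdn, a retinal riboflavin-binding protein, had 34 and 1 in a window centred 361 bp downstream of the TSS in an intron. These 3 windows lie far above the median member. Hist2h4, a histone H4 gene, had 30 and 1, and the window next to it was also a member with 13 and 3. Prcc and Mrpl34, the latter a protein of the large mitochondrial ribosomal subunit, had 29 and 2 each, and Nosip had 29 and 3. The splicing factor gene Rbm25 had 28 and 0, and Ap1g1, the gamma subunit of a clathrin adaptor, had 28 and 2. Ecd had 27 and 0, with a divergent TSS beside it, and Exosc4, a subunit of the RNA exosome, had 27 and 2. Ndufv1, a core subunit of respiratory complex I, had 26 and 0, and was taken before Ube2f, with 26 and 1, for its fewer IgG tags. Of these 12 windows 6 were centred outside genes, 2 in an intron and 4 in an exon.

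Relative to windows of the same GC the order of members was different. Each member's tags were divided by the mean of distant windows of the same GC stratum, and this ratio ran from 6.19 to 53.5 with a median of 8.93. Against promoter windows of the same GC it ran from 2.85 to 16.6 with a median of 4.28. Rbm25 reached 41.7 and Mlf1ip 27.0 against distant windows. Another 5 members had high ratios with fewer tags: Cirbp, a cold-induced RNA-binding protein, at 37.2 with 25 anti-FLAG tags and 1 IgG tag, Dcp1a, a subunit of the mRNA decapping complex, at 31.3 with 21 and 1, and Trmt112, an activator of methyltransferases, at 31.3 with 21 and 2. Rab2b, a small GTPase of the secretory pathway, stood at 29.8 with 20 and 2, and Nip7, a ribosome biogenesis factor, at 28.3 with 19 and 3. Their GC was 62 to 62.8%, where the distant mean rests on 3088 windows, and Rbm25 at 63.2% lies in the same stratum. That mean was 0.671 anti-FLAG tags, the lowest of all strata, with 1.11 at 60 to 62% and 0.785 at 64 to 66%. Promoter windows of 62 to 64% GC held a mean of 4.21. These high ratios thus go with the lowest divisor.

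Small nuclear RNA genes held the highest members. These genes encode the U RNAs, most of them parts of the spliceosome, and most are transcribed by RNA polymerase II without a poly(A) tail. The highest member of all lay at a U2 gene with 45 anti-FLAG tags and 1 IgG tag. A U4 gene had 42 and 3, a U5 gene 41 and 1, another U5 gene 35 and 1, and U1 genes on chromosomes 11 and 12 had 41 and 3 and 34 and 3. All 6 held at least 34 anti-FLAG tags, and none is CpG-rich. Their GC was 41.6 to 45.6%, where 0.459% or less of promoter windows met the rule. Windows beside them were high as well: the window to the right of the chromosome 12 U1 gene had 43 anti-FLAG but 10 IgG tags and so was not a member. By copy, members lay at 4 of 194 annotated U1 genes, 6 of 46 U2 genes, 2 of 42 U4 genes, 4 of 10 U5 genes and 5 of 871 U6 genes, which RNA polymerase III transcribes. Single members lay at 1 of 3 U11 and 1 of 6 U12 genes, and none at the 111 U7 genes. The annotation counts many degenerate copies of these genes. Over all 1331 snRNA genes 2.03% had a member, below the 6.7% of protein-coding genes, but the 25 members nearest to one had a median of 19 tags. Repeats touch these values: the median share of 32-base words found once in the genome was 84.9% in those 25 windows and 100% over all members, and the U2 window with 45 tags had 53.7%. The part of repeated copies in their tag counts was not tested.

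Of the other non-coding members, Gm10060, a pseudogene, had 42 anti-FLAG and 2 IgG tags with 37.7% of its words found once, and Gm15722, a processed transcript, had 33 and 1. Among lincRNA genes, long intergenic transcripts, 95 of 1232, or 7.71%, had a member. A gene also counts through a member nearer to the TSS of another gene, and a lincRNA gene was nearest in 56 members. The share was 1.5% for miRNA genes, 1.71% for snoRNA genes and 0.321% for pseudogenes. Over all members 1332, or 93.3%, had at least 90% of words found once, against 72.7% of every 25th promoter window, and 6 members had under 50%.

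Protein-coding genes were nearest in 1254 members. They make up 21418 of the 34653 annotated autosomal genes, and how often they are nearest over all promoter windows was not counted. Of the 21418 autosomal protein-coding genes 1434, or 6.7%, had a member within 1 kb of the TSS. At distant rates of the same GC this share would be 0.608%. Among the 11609 protein-coding genes with a CpG-rich promoter window the share was 11% (10.5 to 11.6), and among the other 9809 it was 1.56% (1.32 to 1.83). More than 1 TSS lay within 1 kb of 334 members, 23.4%, against 7.70% of promoter windows. Divergent pairs, whose genes run away from each other out of a shared promoter, accounted for 191 members, 13.4% (11.7 to 15.3), against 3.79% of promoter windows. The rule was met in 3.94% of divergent windows and 1.00% of others, with mean GC of 54.7% and 48.0% and shares of 0.182% and 0.131% at distant rates.

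Among lists of genes by function, cytosolic ribosomal protein genes and replication-dependent histone genes had the highest shares of genes with a member. The lists were drawn up with earlier results of these data known, so the shares are descriptions beside the 6.7% of all protein-coding genes and the 11% of those with a CpG-rich window. Cytosolic ribosomal protein genes, which encode the proteins of the translating ribosome, had a member at 28 of 80, 35.0% (24.7 to 46.5). The highest were Rps12 with 22 anti-FLAG and 2 IgG tags and Rpl3 with 22 and 3. Replication-dependent histone genes, transcribed in S phase, had one at 20 of 67, 29.9%. After Hist2h4 came Hist1h2ak, which shares its window of 20 and 1 tags with Hist1h2bn, and such shared windows count for both genes. Mitochondrial ribosomal protein genes had 18 of 76, 23.7%, led by Mrpl34 and Mrps18c (20 and 0). Respiratory chain genes had 20 of 89, 22.5%, led by Ndufv1 and Ndufs7 (24 and 3), another subunit of complex I.

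Genes induced within minutes by serum and growth factors, the immediate early genes, had 13 of 54, 24.1% (13.5 to 37.6). Serum was recorded at the same level for both libraries, so its part in this share was not tested. Gadd45b, a stress-induced growth regulator, had 19 and 0 tags, and Btg2, an antiproliferative gene, 19 and 2. DNA replication genes had 12 of 52, 23.1% (12.5 to 36.8), with Orc1, the large subunit of the origin recognition complex, at 18 and 2 in a window nearer to the TSS of Prpf38a, and Rrm1, a ribonucleotide reductase subunit, at 17 and 2. Splicing factor genes had 20 of 108, 18.5%, with Rbm25 and Rbm34 (22 and 2) highest. Proteasome genes had 9 of 51, 17.6%, led by Psmd3 (22 and 2) and Psmb6 (18 and 2).

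Members also lay at genes of the cell cycle. Cyclin, CDK and pocket protein genes had 8 of 48, 16.7% (7.48 to 30.2), with Cdk1, the mitotic kinase, at 18 and 2 and Ccna2, cyclin A2, at 14 and 0. Kinetochore and mitosis genes had 11 of 91, 12.1%, where Mlf1ip was followed by Cenpo and Spc25 with 15 and 0 each. DNA repair genes had 8 of 65, with Parp2 and Xrcc5 at 17 and 2 each. The intervals of these 3 lists reach down to 7.48%, 6.19% and 5.47% and that of the proteasome genes to 8.4%, so they hold the 11% of genes with a CpG-rich window. Those of the kinetochore and DNA repair genes also hold the 6.7% of all protein-coding genes.

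Other lists of general functions lay between 11.3% and 15.8%. The lower bounds of their intervals ran from 3.38% to 6.64%, and the lowest upper bound was 19.4%. All of these intervals hold the 6.7% of all protein-coding genes and the 11% of those with a CpG-rich window. Glycolytic enzyme genes had 3 of 19, with Ldhb at 14 and 2 and Gapdh at 12 and 0. RNA polymerase II and Mediator genes had 6 of 41, with Med6 at 19 and 3 and Med11 at 18 and 2. Translation factor genes had 9 of 64, with Eif2s1 at 20 and 2 and Eef1g at 19 and 2. Histone modifier genes had 10 of 75, with the demethylases Kdm3a at 18 and 1 and Kdm5a at 18 and 3. Actin cytoskeleton and adhesion genes had 10 of 86, with Arpc3 at 19 and 3 and Vim, the fibroblast intermediate filament vimentin, at 16 and 2. Chaperone genes had 11 of 97, with Hspa2 at 19 and 0 and Cct4 at 15 and 0.

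Lists tied to lineage and signalling lay near or under the share of all protein-coding genes. Zinc finger protein genes had 30 of 337, 8.90%, with Zfp770 at 25 and 3 and Zfp91 at 19 and 1. Matrix genes, which fibroblasts express at high levels, had 7 of 94, 7.45% (3.05 to 14.7), with Col1a2 at 15 and 3 and Serpinh1 at 13 and 2. Genes of the Notch, Wnt, Hippo and TGF-beta pathways had 4 of 79, 5.06%, with Tgfb3 at 15 and 2 and Fzd4 at 14 and 1. Hox genes had 1 of 40, Hoxb2 with 14 and 1. Olfactory receptor genes, which serve the olfactory epithelium, had 0 of 1081, which allows a share of up to 0.341%. Their highest windows had a median GC of 38.6%. Only 3 of them have a CpG-rich promoter window, against 32 of the Hox genes, and none of these genes had a member.

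**Figure D4:**
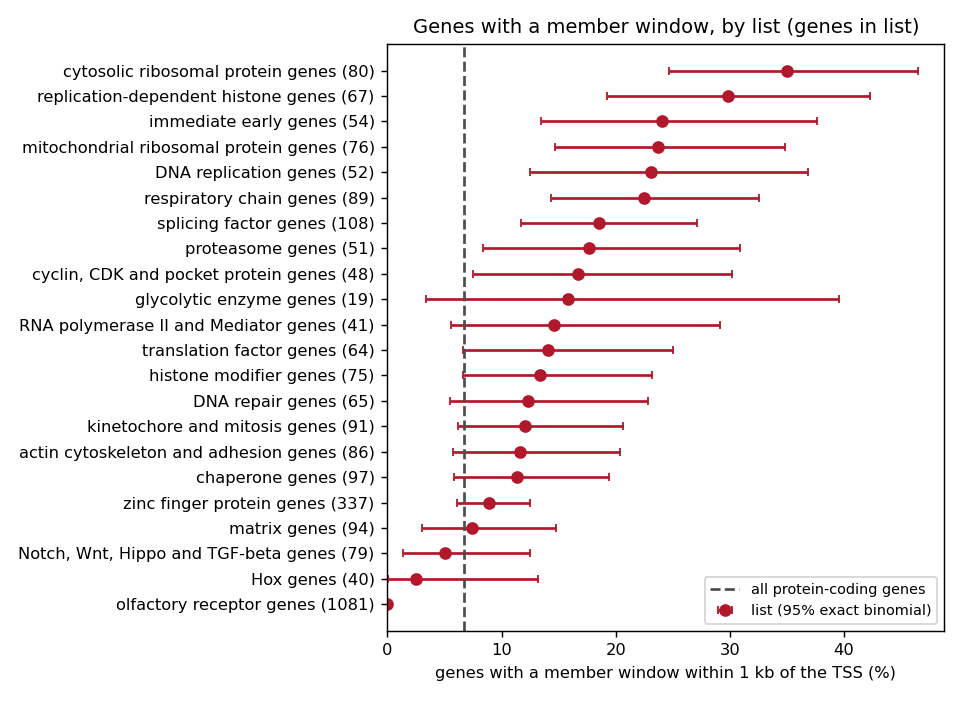
Share of genes with a member window within 1 kb of the TSS (x axis, %) for 22 lists (y axis, genes in brackets), with 95% exact binomial intervals and the share of all protein-coding genes as a dashed line. Cytosolic ribosomal protein genes stand highest at 35.0% and olfactory receptor genes at 0.

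Motifs were counted on both strands of the 500-bp windows for 18 patterns. Each is spelled out where its counts are given, with N for any base, and those of CTCF and CArG are given by name alone. Some can share bases, as STAT with ETS and SP1 with E2F. A match is a description of letters and not of binding. The share of all promoter windows with a match is given in each case, and beside it the share when promoter windows are weighted to the GC and position of the members.

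The ETS motif (CCGGAAG), bound by a large family of activators, was in 25.2% of members (23% at the lower bound of the interval), 4.88% of promoter windows and 11.2% after weighting. It is in the Fdxr, Exosc4, Nip7 and Dcp1a stretches above. The stretches of Prcc, Mrpl34, Nosip and Cirbp, which are not shown, hold no match to any of the 18 motifs. The YY1 motif (AAGATGGCG) was in 4.70% of members, 0.807% of promoter windows and 1.75% after weighting, the highest ratio to the weighted share, 2.69. The CTCF motif, that of the insulator protein, was in 3.78%, 0.870% and 1.51%, and it is in the Ndufv1 stretch. The ZBTB33 motif (TCTCGCGAG) was in 1.26%, 0.192% and 0.586%, or 18 members. The CRE, or cyclic AMP response element (TGACGTCA), was in 3.85%, 0.732% and 1.85%. The motif of E2F (TTTNNCGC), the family controlled by the retinoblastoma protein, was in 15.5%, 5.48% and 8.86%, and that of NRF1 (GCNTGCGC), a regulator of mitochondrial genes, in 20.9%, 6.30% and 12%. These 7 motifs had ratios of 1.74 to 2.69. The weighting did not cover CpG content, and several of these motifs contain CpG in their letters. Among CpG-rich windows alone the ratios were 1.16 for E2F, 1.23 for NRF1, 1.32 for ZBTB33 and 1.49 for CRE. E2F was there in 19.4% of members (16.8 to 22.3), against 16.7% of weighted windows. Those of ETS, YY1 and CTCF are given below.

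For the rest of the motifs, members differed less from weighted promoter windows. The SP1 motif (GGGCGG), which binds a general activator of CpG-island promoters, was in 53.7% of members and 21.6% of promoter windows but in 43.0% after weighting. The NF-Y motif (CCAAT) was in 52.5% of members, 49.8% of promoter windows and 47.2% after weighting. The E-box (CACGTG), the motif of Myc and related factors, was in 13.3%, 6.91% and 10%, in the same order. The xenobiotic response element XRE (TNGCGTG) was in 14.1%, 6.27% and 9.41% of windows. The STAT motif (TTCCNGGAA) was in 2.38%, 1.5% and 1.77%, and CArG, the element of serum response factor, in 2.38%, 2.55% and 2.16%. The TATA motif (TATAAA) was in 13.9% of members and 26.3% of promoter windows, and in 13.5% after weighting for GC and position. TEAD (GGAATG), the motif of the Hippo pathway factors, was in 22%, 23.7% and 22.7%. The RBPJ motif of the Notch pathway (GTGGGAA) was in 10.4%, 9.94% and 11.2%. The nuclear receptor motif (AGGTCA) was rarer in members, 21.1%, than in promoter windows, 26.3% with and without weighting.

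Motifs were also counted in CpG-rich and CpG-poor members apart. Among the 833 CpG-rich members ETS was in 33.7%, against 21.8% of CpG-rich promoter windows after weighting, and YY1 in 6.96% against 3.89%, while AP-1 (TGANTCA), the motif of Fos and Jun dimers, was in 7.56% against 6.67%. Among the 118 CpG-poor members AP-1 was in 45, or 38.1% (29.4 to 47.5), against 14% of CpG-poor promoter windows after weighting. CTCF was in 7 of the 118, 5.93% against 0.752%, and ETS in 8, 6.78% against 2.23%. The ratio of members to weighted windows was 2.73 for AP-1, 7.89 for CTCF and 3.04 for ETS in this class, and 1.13, 1.79 and 1.55 among CpG-rich windows, where that of YY1 was 1.79. Over all members AP-1 was in 12%, close to the 12.3% of promoter windows and 9.94% after weighting. Windows beyond 1 kb of a TSS that met the tag rule, CpG-poor in 72.2% inside and 69.7% outside genes, had AP-1 in 29.5% and 32.7%, and ETS in 3.27% and 3.02%. CpG-poor members lay within 250 bp of a TSS in 23.7%, against 76.0% of CpG-rich ones. Over all promoter windows 14984 of 73395 CpG-poor and 9934 of 19847 CpG-rich windows lay that close, so the classes differ in position without the rule. A protein-coding gene was nearest in 62.7% of CpG-poor and 93.3% of CpG-rich members, and this was not counted for all promoter windows.

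The CpG-poor members with most tags at protein-coding genes were Serpinb6b with 24 anti-FLAG and 2 IgG tags, Fam180a with 20 and 3 and Adamtsl4 with 19 and 0. They were chosen for naming after their values were seen. Neat1, a long non-coding RNA of nuclear paraspeckles, had 18 and 0, and Nr1d1, the circadian repressor REV-ERB alpha, had 18 and 2. The 120 bases around the AP-1 match, in capitals, are shown for the first 2 CpG-poor protein-coding members whose match lies clear of exons. That of Adamtsl4 lies at chr3:95492194-95492313 (minus strand), from -473 to -354 bp of the TSS, and held 9 of its 19 anti-FLAG tags. That of Gm9875 holds 2 matches, both TGATTCA, and the first of them lies outside the member window. It lies at chr2:13478961-13479080 (plus strand), begins before the member window and held 5 anti-FLAG tags, beside 18 in that window. Another, at Nr1d1, held 0 of 18 anti-FLAG tags in the 120 bases around its match, so a match in the window need not lie under the tags.
Adamtsl4: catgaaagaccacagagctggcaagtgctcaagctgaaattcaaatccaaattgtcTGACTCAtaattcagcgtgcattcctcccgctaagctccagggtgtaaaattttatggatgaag
Gm9875: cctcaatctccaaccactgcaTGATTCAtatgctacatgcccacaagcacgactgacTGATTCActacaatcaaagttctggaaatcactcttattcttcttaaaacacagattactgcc

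**Figure D5:**
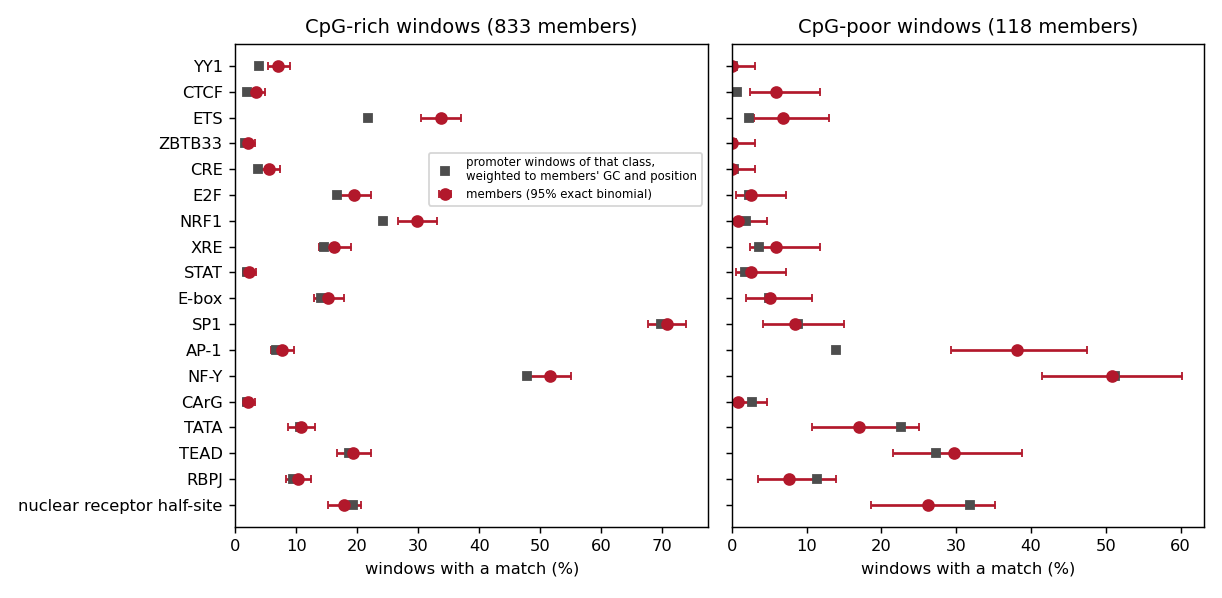
Share of windows with a match (x axis, %) for 18 motifs (y axis), in CpG-rich (left) and CpG-poor windows (right): members in red with 95% exact binomial intervals, promoter windows of the same class weighted to the members' GC and position in grey. ETS was in 33.7% of CpG-rich and 6.78% of CpG-poor members, above the weighted 21.8% and 2.23%, and AP-1 in 7.56% and 38.1%, against 6.67% and 14%.

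Members were unevenly spread over chromosomes. Their share of promoter windows ran from 0.535% on chromosome 4 to 3.12% on chromosome 19, where 110 of 3531 windows were members, and was 2.12% on chromosome 8. The density of anti-FLAG tags far from genes also differed, from 2.85 tags per kb on chromosome 7 to 5.44 on chromosome 19, with 4.62 on chromosome 8. IgG densities followed, with 2.82, 5.4 and 4.74. Across the 19 chromosomes, which share both libraries, Pearson's r between anti-FLAG density and the share of members was 0.92 and Spearman's rho 0.83. Without the 2 chromosomes farthest from the median density, r was 0.78. When both limits were scaled by each chromosome's density, 1078 windows met them, 866 of them among the 1427, and the share ran from 0.443% on chromosome 2 to 1.22% on chromosome 7. Chromosome 19 then had 0.680% and chromosome 8 0.716%. Because tags are whole numbers, the scaled limits act in steps of whole tags, and the part of these steps in the shares was not tested. Mlf1ip, Rtbdn, Mrpl34 and Ap1g1, 4 of the 12 protein-coding windows with most tags, lie on chromosome 8, as does Gm10060. This scaling was chosen after seeing the data.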

How the data were processed

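Chromatin immunoprecipitation sequencing of 2 libraries, 1 anti-FLAG and 1 IgG, was used, grouped by the antibody in the labels. Fixation was with 1% formaldehyde (15 min) and shearing to 300 to 500 bp, per the labels' protocols. The deposited files list tag positions with strand and were made by the authors; which aligner and build served is not given in the sources used here. A score column, constant in the deposited files, was ignored. All tags are 36 bp long, 0 tags of a library share position and strand, and 4 anti-FLAG and 2 IgG tags reach beyond a chromosome end of NCBIM37, which was therefore used with GENCODE M1 genes.

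Tags were placed at their 5′ end moved 72 bp downstream and counted in 500-bp windows from position 0 with Python 3.11.15, NumPy 2.4.6, pandas 2.3.3, SciPy 1.17.1 and Matplotlib 3.10.9. Counting in windows was tested on simulated tags at known positions, which did not test the 72-bp move or the reading of 5′ ends. GC strata with under 200 distant windows were pooled with their neighbour. The members, lists, motifs and alternatives were chosen with earlier results of these data known. Named windows were the 12 members of most anti-FLAG tags at protein-coding genes with at least 25% of them on each strand, the 8 of most tags at other genes, the 5 others of largest ratio to distant windows of the same GC, the 2 member genes of most tags per list and the longest run. Weighting of motifs by position as well as GC, the tag closeness within windows, the share of genes with a CpG-rich window and the AP-1 stretches were added after seeing the data. Limits, grid, tag shift, TSS distance, gene set, strand filter and GC strata were varied as alternatives. Some sequences of named windows are not reported here.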

Additional observations from a re-analysis of the deposited data

Results flagged for a closer look

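On chromosome X, which the rule leaves out, 9 of 9925 promoter windows met the same limits, 0.0907% (0.0415 to 0.172), while 0 met them with the libraries exchanged. Promoter windows there held means of 1.24 anti-FLAG and 1.10 IgG tags, below the 2.84 and 1.92 of autosomal promoter windows. Mitochondrial DNA, outside the windows, gave 4551 anti-FLAG and 3363 IgG tags, a ratio of 1.36 (1.30 to 1.42) after scaling to library totals. Both are signals outside the measurement above, given as values.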

How the results depend on the processing

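No paired analysis was possible because there is 1 library per antibody and no result comes from a test across samples. Of 98 values under alternatives, over 8 results, 35 moved. The other 63 stayed within 1.5 times the reported count, or within the 95% interval of a reported share or median, which still allowed 2045 member windows with a maximum of 5 IgG tags and 1078 with limits scaled by chromosome density. Member windows numbered 2761 with a minimum of 10 anti-FLAG tags, 544 with 15 and 615 with a maximum of 1 IgG tag. These are also the counts at 2-fold or more over distant windows of the same GC, which the limits fix. Genes with a member numbered 3072, 666 and 761, and windows at distant rates 401.9, 64.6 and 69.6. Those were 97.6 within 500 bp and 290.5 within 2 kb of a TSS. The ratio of members to that number ran from 5.77 within 2 kb to 12.1 within 500 bp. CpG-rich members made up 55.1%, 61.6% and 71.2% under the same 3 limits, 50.2% with a maximum of 5 IgG tags, 66.7% within 500 bp, 51.4% within 2 kb and 61.9% with TSSs of protein-coding genes. The median GC was 58.4% with a maximum of 1 IgG tag, 53.6% with 5, 56.4% within 500 bp and 54.4% within 2 kb. Upstream members were 59.4% with a minimum of 15 tags and 51.7% with a maximum of 1 IgG tag. Windows that met the rule with the libraries exchanged, 18 as reported, were 95 with a minimum of 10 tags, 1 with 15, 2 with a maximum of 1, 38 with 5, 4 within 500 bp, 35 within 2 kb, 10 on a grid moved by 250 bp and 10 with limits scaled by chromosome density, an alternative chosen after seeing the data. The cause of these moves was not tested. Which windows are members depends on the grid as well: 731 of the 1427 overlapped a window that met the rule on the moved grid, and 973 met it with tags left in place.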

Other observations

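Members of low GC were few but mixed in kind. Under 45% GC lay 109 members, 0.209% of the 52224 promoter windows of that GC. A protein-coding gene was nearest in 73 of them, a snoRNA, lincRNA or processed transcript in 7 each, and an snRNA gene in 5. The shares of these kinds over all promoter windows of that GC were not counted. The AP-1 motif was in 26 of the 109, 23.9%, against 15.0% of promoter windows of that GC. Member windows lay at 95 genes more than once.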
